A study of Mus musculus with 6 samples.

Results

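The LKB1 complex is described here through its 5 genes in mouse liver: Stk11, which encodes the kinase LKB1, Strada and Stradb, which encode its pseudokinase partners STRADα and STRADβ, and Cab39 and Cab39l, which encode the scaffold proteins MO25α and MO25β. The genes were chosen by symbol from the 55450 rows of the deposited count table, and all 5 were among the 14539 genes with enough counts to be tested. The study compared 3 knockout (KO) mice, labelled LKB1 fl/fl and "LKB1 knock out", with 3 wild type (WT) mice of genotype "normal". Mice of both groups received AAV8 Cre when they were 6 weeks old, and the left liver lobe was taken 4 weeks later, at 10 weeks. The strain is given as C57BL/J for all 6 mice, and poly(A) RNA of each liver gave 1 library. Cre removes DNA between loxP (fl) sites, so the WT mice are a control for the virus and for Cre. The promoter that drives Cre, the floxed exons and the breeding of the WT mice are not given in the sources used here.

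LKB1 differs from most kinases in that it is switched on by binding: STRAD, a kinase-like protein without catalytic activity, holds LKB1 in its active shape and keeps it in the cytoplasm, and MO25 stabilises the pair. The active complex phosphorylates AMPK and a family of related kinases. In liver it is known as a brake on glucose production and as a sensor arm of energy metabolism.

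The libraries held between 47659122 and 56147667 expected counts, and levels are given as CPM, the usual depth-scaled unit of counts, after TMM correction of the library sizes. KO was compared with WT by the quasi-likelihood test of edgeR, with a threshold of 0.05 on the adjusted p. Of all tested genes 3.37% passed it, 2.15% as higher and 1.22% as lower in KO, 26.3% had an unadjusted p under 0.05, and in 32.4% the KO and WT libraries did not overlap. Replicate 1 of each group had Xist counts (29243 and 42472) and almost no Y-linked counts, whereas the other 4 libraries had 6146 to 8199 counts of 4 Y-linked genes. The replicates numbered 2 and 3 were therefore also fitted alone. The hepatocyte genes Alb, Apoa1 and Ttr were abundant in every library, with Alb at 10394 CPM or more. The summed CPM of 9 hepatocyte markers nevertheless ran from 27263 to 76659 in KO and from 89065 to 127376 in WT. Alb was the largest part of each sum, at 10394 to 50550 CPM in KO and 57064 to 95626 CPM in WT. Of the 9 markers, 3 had a log2 fold change above 0: Serpina1a (0.03), Hnf4a (0.20) and Cps1 (1.17).

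Stk11 was the only member that passed the test, and it fell, as did 1.22% of all genes. The gene, ENSMUSG00000003068.16, lies on the plus strand of chromosome 10 from 80115803 to 80130682 (build GRCm38, used for all positions here). Its libraries held 1291, 801 and 536 expected counts in KO 1 to 3, and 3352, 3328 and 3259 in WT 1 to 3. Set against the WT mean in CPM, KO 1 kept 33.2%, KO 2 kept 21.6% and KO 3 kept 17.1% of the Stk11 level, while the WT libraries lay between 96.3% and 105% of it. All KO libraries were thus below all WT libraries, and KO 1 stood above the other KO libraries. The fitted level in KO was 0.24 times that in WT (95% interval 0.16 to 0.36, n = 3 each; log2 fold change -2.06, SE 0.247, edgeR adjusted p = 0.0167).

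**Figure D1:**
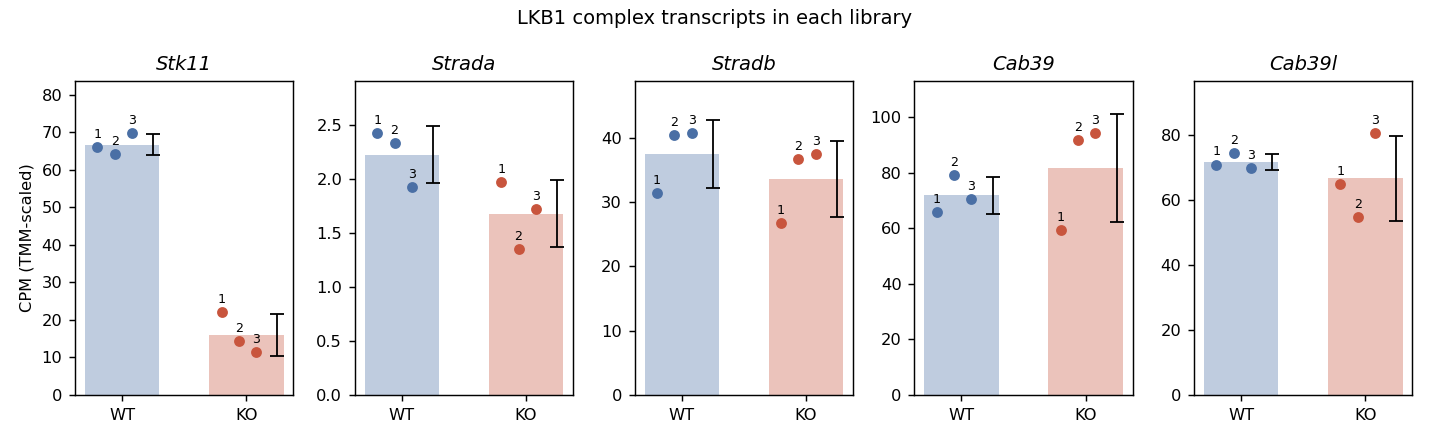
CPM of the 5 genes in each library, with the replicate number above each point; bars are means and whiskers 1 SD (n = 3 per group), each panel with its own axis from 0. The groups are apart for Stk11, at 11.4 to 22.1 CPM in KO and 64.2 to 69.7 CPM in WT, and overlap for the 4 partner genes.

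The size of the Stk11 fall differed between the libraries. In the replicates numbered 1 the log2 ratio of KO to WT was -1.58, a comparison of 1 library with 1, and in the replicates numbered 2 and 3 the fold change was -2.37 (edgeR adjusted p = 0.000596, 2 against 2). The interaction of the group with this split had an unadjusted p of 0.0189 and an adjusted p of 0.164 in edgeR, where 2.90% of all genes passed, so a difference between the subsets did not pass the threshold. The fall kept its direction without any single library, but whether it was called depended on which library was left out. The adjusted p was 0.06 without KO 2, 0.0596 without KO 3, 0.0908 without WT 2 and 0.098 without WT 3, with log2 fold changes of -1.98, -1.87, -2.09 and -2.03. It stayed below 0.05 without KO 1 (-2.37, adjusted p = 0.000637) and without WT 1 (-2.07, adjusted p = 0.0329).

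Bulk liver also holds cells other than hepatocytes, and in bulk samples fewer cells of a type and less RNA per cell cannot be told apart. KO 1, the KO library with most Stk11, also had the highest summed CPM of the KO libraries in all 7 marker lists examined. Such sums follow their most abundant genes: in KO 1, Spp1 alone was at 67.7 CPM in a bile duct sum of 74.9 CPM. KO 1 was the highest KO library for each of the 8 stellate cell markers. It was not the highest for markers of other lists such as Hnf4a, Cps1, Serpina1a, Lyve1, Marco, Cd68, Sox9, Krt7, Cd3g and Nkg7. For 8 endothelial markers the sums were 190, 141 and 119 CPM in KO 1 to 3 and 226 to 303 CPM in WT, and for 8 Kupffer cell and macrophage markers they were 233, 140 and 105 CPM in KO and 144 to 198 CPM in WT. The sums for 8 stellate cell markers ran from 167 to 320 CPM in KO and from 249 to 531 CPM in WT, and for 6 bile duct markers from 24.9 to 74.9 and from 39.6 to 73.1 CPM. Lymphocyte markers (7) summed to 0.785 to 2.61 CPM in KO and 2.62 to 3.805 CPM in WT, and neutrophil markers (5, with Ly6g at 0 in every library) to 0.612 to 0.823 and 0.299 to 0.347 CPM. Over all 6 libraries edgeR called 0 of the markers. An unadjusted p under 0.05 was found for 7 of 8 endothelial and 4 of 9 hepatocyte markers, against 26.3% of all genes. It was also found for 1 lymphocyte marker, Cd3e (lower), and 1 neutrophil marker, S100a9 (higher). Of the 4 hepatocyte markers, Apoa1, Ttr and Fgb were lower and Cps1 was higher in KO. DESeq2 called 4 endothelial markers and 4 hepatocyte markers as lower and 1 hepatocyte marker, Cps1, as higher, where it called 15.8% of all genes, and limma voom called 1, Apoa1, as lower. Without KO 1, edgeR called as lower 7 of 8 endothelial, 5 of 9 hepatocyte, 5 of 8 Kupffer cell, 2 of 8 stellate cell, 1 of 6 bile duct and 3 of 6 tested lymphocyte markers. It called as higher 1 hepatocyte and 1 neutrophil marker, Cps1 and S100a9, where 30.3% of all genes were called in either direction. The part of these cells in the remaining Stk11 counts was not tested. Counts are totals over the gene, so reads of exons outside the deleted part count as well. Stk11 also shares 157 of its 4868 distinct 76-base stretches with the opposite strand of Cbarp, a gene with only 29 to 92 counts per library.

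The partner genes come in pairs of paralogs, and their counts could be told apart at the read length of 76 nt. The coding sequences of Strada and Stradb were identical at 60.5% of 1156 aligned bases, with a longest shared run of 14 bases, and those of Cab39 and Cab39l at 75.6% of 1002 aligned bases, with a longest shared run of 17 bases. These runs are shown because they are the longest identical stretches of the compared coding sequences. Untranslated parts were not searched for such runs. They are taken from the GENCODE M21 transcripts, written 5′ to 3′ as in the mRNA, with the shared run in capitals and 15 coding bases on each side; each spans an intron.
Strada: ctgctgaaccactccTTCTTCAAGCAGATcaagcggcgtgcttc
Stradb: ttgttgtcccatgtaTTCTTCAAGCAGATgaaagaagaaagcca
Cab39: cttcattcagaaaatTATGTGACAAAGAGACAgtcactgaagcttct
Cab39l: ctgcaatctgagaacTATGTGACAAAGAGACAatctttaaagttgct
On GRCm38 the Strada stretch lies within chr11:106164175-106164457 (minus strand), that of Stradb within chr1:58993577-58994309, that of Cab39 within chr1:85847434-85848281 and that of Cab39l within chr14:59528866-59539066 (all plus strand). No 76-base stretch of an annotated transcript of Stradb or Cab39 occurs in any other gene. Strada shares 85 of 5769 such stretches with Ccdc47, a neighbour with 4938 to 7388 counts per library whose exons overlap its own on the same strand, and Cab39l shares 188 of 6873 with the opposite strand of Cdadc1 (1711 to 3169 counts). The counts of Strada and Cab39l are therefore uncertain over these stretches, and for Cab39l also because the use of strand in counting is not given in the sources used here.

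Of the pseudokinase genes, Stradb supplied most transcripts in every library. Stradb (ENSMUSG00000026027.13, chromosome 1, 58973522 to 58995715, plus strand) was at 26.8, 36.6 and 37.4 CPM in KO 1 to 3 and at 31.4, 40.4 and 40.7 CPM in WT 1 to 3. Replicate 1 was the lowest of its group in both groups, and the groups overlapped. The log2 fold change of Stradb was -0.16 (SE 0.177, 95% interval -0.58 to 0.26, edgeR adjusted p = 0.599), and no setting tried gave a call.

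Strada (ENSMUSG00000069631.14, chromosome 11, 106163330 to 106202168, minus strand) was rare. It had 115, 75.2 and 81.1 expected counts in KO 1 to 3 and 123, 121 and 90.1 in WT 1 to 3, or 1.97, 1.35 and 1.72 CPM against 2.42, 2.33 and 1.92 CPM. The KO values were low as a group but KO 1 lay above WT 3, so the groups overlapped. The log2 fold change of -0.41 (SE 0.252) had a 95% interval from -1.003 to 0.19 and an edgeR adjusted p of 0.344, and it ran from -0.54 to -0.27 when single libraries were left out. At these depths the counting error alone was 9.02% to 11.5% of each Strada value, against 1.73% to 4.32% for Stk11.

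Per transcript length, Strada made up 12.6%, 6.71% and 8.23% of the summed STRAD level in KO 1 to 3 and 13.1%, 10.1% and 8.45% in WT 1 to 3. The share did not differ beyond the spread of the libraries, at 9.17% ± 3.04 in KO and 10.6% ± 2.35 in WT (SD, n = 3; exact two-sided permutation p = 0.5, where 0.1 is the smallest that 3 against 3 can give). The Strada share depends on the transcript length assumed: with the longest annotated transcript it was 4.51% in KO and 5.22% in WT.

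The scaffold genes were both well expressed, and neither passed the test. Cab39 (ENSMUSG00000036707.16, chromosome 1, 85793441 to 85851576, plus strand) was at 59.4, 91.7 and 94.1 CPM in KO 1 to 3 and at 65.9, 79.0 and 70.6 CPM in WT 1 to 3. KO 2 and KO 3 lay above every WT library and KO 1 below every one. The log2 fold change of Cab39 over all libraries was 0.19 (SE 0.199, 95% interval -0.29 to 0.66, edgeR adjusted p = 0.58). It was 0.31 in the replicates numbered 2 and 3 (edgeR unadjusted p = 0.0362, adjusted p = 0.0877) and -0.15 in the pair numbered 1. The interaction with that split had an adjusted p of 0.26 in edgeR, so the subsets were not shown to differ. Without KO 1 the fold change of Cab39 was 0.37, and the adjusted p of 0.0598 still missed the threshold.

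Cab39l (ENSMUSG00000021981.10, chromosome 14, 59440972 to 59585764, plus strand) was at 64.7, 54.5 and 80.4 CPM in KO 1 to 3 and at 70.8, 74.3 and 69.7 CPM in WT 1 to 3. The WT libraries lay within the range of the KO libraries. The log2 fold change was -0.11 (SE 0.162, 95% interval -0.49 to 0.28, edgeR adjusted p = 0.708), and its sign turned without KO 2 (0.02). Cab39 made up 42.3%, 57.3% and 48.3% of the summed MO25 level per length in KO 1 to 3 and 42.6%, 45.9% and 44.7% in WT 1 to 3. The means were 49.3% ± 7.54 in KO and 44.4% ± 1.67 in WT (SD, n = 3; exact two-sided permutation p = 0.5). The spread of this share was thus wider in KO, while the means differed by less than the KO spread.

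Levels of different genes were compared as CPM per kilobase of the principal transcript. In WT the order was Stk11 at 26.0 ± 1.09, Cab39l at 23.6 ± 0.790, Cab39 at 18.9 ± 1.75, Stradb at 12.7 ± 1.78 and Strada at 1.47 ± 0.176 CPM per kb (SD, n = 3), with no overlap between neighbours in this order. The first 3 places depend on the transcript length. With the longest annotated transcript of each gene, Stk11 was at 18.2, Cab39l at 20.2 and Cab39 at 18.9 CPM per kb, and each of these overlapped its neighbour. Stradb and Strada kept the last places in WT under both lengths.

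In KO, Stk11 moved to the place between Stradb and Strada. The KO levels were 21.9 ± 4.29 for Cab39l, 21.5 ± 5.09 for Cab39, 11.4 ± 2.00 for Stradb, 6.23 ± 2.16 for Stk11 and 1.11 ± 0.206 CPM per kb for Strada (SD, n = 3), and of these neighbours only Cab39l and Cab39 overlapped. The ratio of Stk11 to both STRAD genes together was 0.834, 0.424 and 0.322 in KO 1 to 3 and 2.11, 1.65 and 1.81 in WT 1 to 3. The ratio to both MO25 genes was 0.234, 0.134 and 0.0866 in KO against 0.634, 0.553 and 0.654 in WT. For both ratios every KO library was below every WT library, and the exact two-sided permutation p was 0.1, the smallest this design allows. Both ratios have Stk11 as numerator, so they restate its fall and are not separate evidence.

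**Figure D2:**
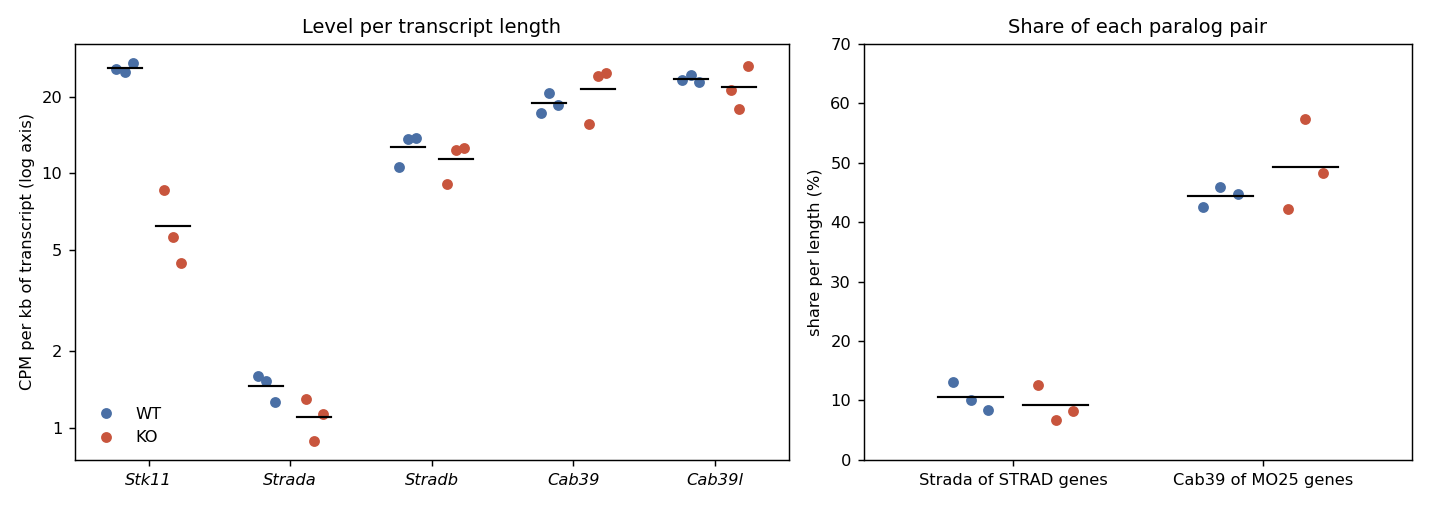
Left, CPM per kb of the principal transcript for each gene and library on a log axis; right, Strada as a percent of both STRAD genes and Cab39 as a percent of both MO25 genes, per length. Points are libraries and lines are means of 3. By the principal transcript Stk11 drops from the first place in WT (26.0 CPM per kb) to the fourth in KO (6.23). With the longest annotated transcript it is not first in WT (18.2, with Cab39l at 20.2 and Cab39 at 18.9). Both shares overlap between the groups.

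The genes around the complex were described from lists of its known substrates, other binding partners and regulators, which were written with earlier results of these data known. The substrates of LKB1 are 14 kinases of the AMPK family, of which 13 were tested. Of these, 1 rose, 0 fell and 12 did not pass the threshold, where 2.15% of all genes rose and 1.22% fell, and the median log2 fold change was -0.14 against 0.01 for all genes. Sik1, a salt-inducible kinase known to be induced through CREB, was at 79.9, 288 and 189 CPM in KO 1 to 3 and at 30.5, 24.0 and 42.4 CPM in WT 1 to 3. All KO libraries lay above all WT libraries, most narrowly KO 1. The log2 fold change of Sik1 was 2.52 (SE 0.474, edgeR adjusted p = 0.044). The call was kept without KO 1 (2.89, adjusted p = 0.00236) and lost without any other single library, with adjusted p-values of 0.095 without KO 2, 0.166 without KO 3, 0.106 without WT 1, 0.203 without WT 2 and 0.153 without WT 3.

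The catalytic AMPK genes did not pass the test. Prkaa2, which encodes the α2 subunit, was at 60.9, 81.6 and 77.8 CPM in KO and 70.4, 98.5 and 109 CPM in WT (log2 fold change -0.34, 95% interval -0.82 to 0.15, edgeR adjusted p = 0.333). Prkaa1, which encodes α1, was at 9.80, 15.8 and 14.9 CPM in KO and 12.9, 14.9 and 13.3 CPM in WT (-0.02, 95% interval -0.49 to 0.45, edgeR adjusted p = 0.956). The sign for Prkaa1 turned when libraries were scaled by size alone (0.03) and in the replicates numbered 2 and 3 (0.12). It also turned without KO 1 (0.17) and without WT 2 (0.05). Snrk (41.1, 40.7 and 41.9 CPM in KO, 56.2, 53.2 and 50.9 CPM in WT) and Nuak2 (4.25, 5.33 and 5.96 CPM in KO, 10.4, 7.41 and 9.30 CPM in WT) were chosen after their values were seen, because DESeq2 called them. Their log2 fold changes were -0.37 and -0.80, with edgeR adjusted p-values of 0.0877 and 0.0732, and their DESeq2 adjusted p-values were 0.0238 and 0.00774, where DESeq2 called 15.8% of all genes. The KO and WT libraries did not overlap in 4 of the 13 kinases, Sik1, Sik3, Snrk and Nuak2, or 30.8% against 32.4% of all genes. Brsk2 was not tested, at 0.0686 CPM or less in every library. In the replicates numbered 2 and 3, Sik1 and Nuak1 were called as higher and Snrk and Brsk1 as lower. These are 4 of 13, where 32.7% of all genes were called. Brsk1 was near the detection limit, at 0.0637 to 0.406 CPM, and its groups overlapped over all libraries. Nuak1 was at 3.24, 7.18 and 6.90 CPM in KO 1 to 3 and 4.32 to 4.47 CPM in WT. Its KO 1 thus lay below every WT library.

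**Figure D3:**
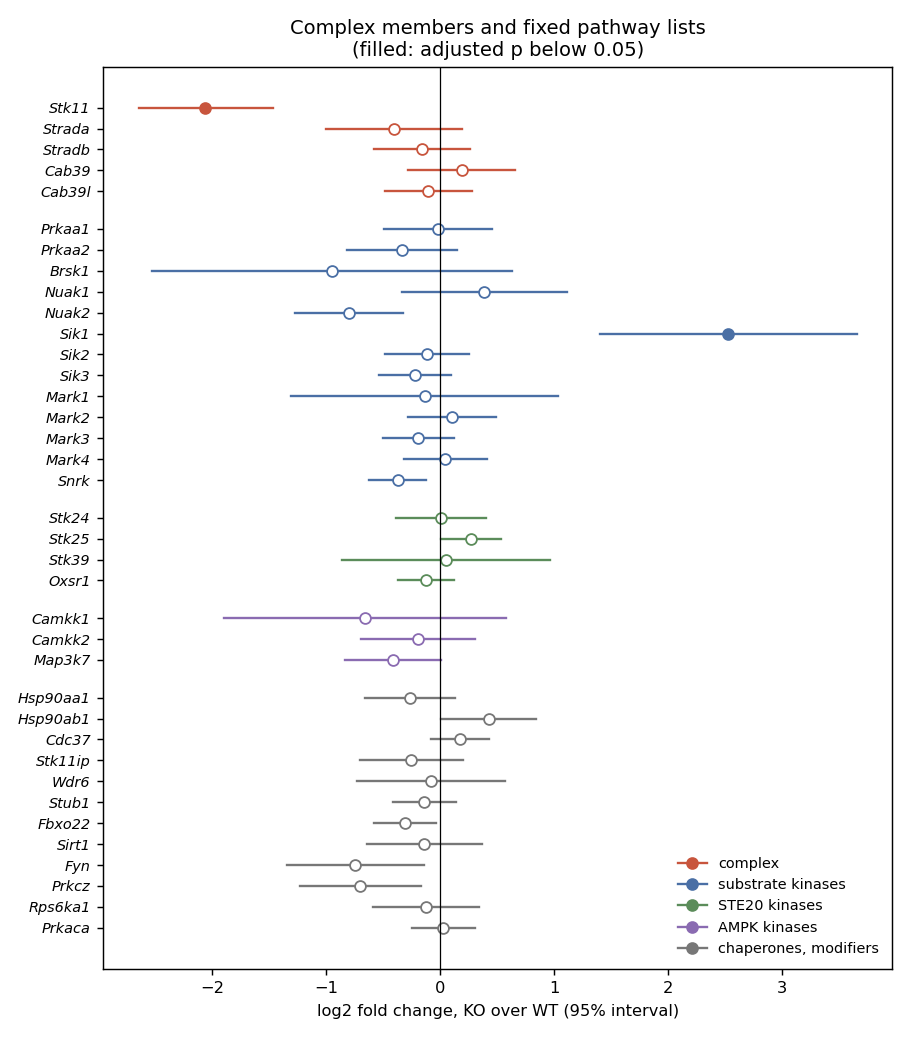
Log2 fold change of KO over WT with its 95% interval for the tested members of the complex and of 4 pathway lists; filled points passed an edgeR adjusted p of 0.05. Stk11 at -2.06 and Sik1 at 2.52 are the filled points, and the other intervals show the range of change that these 6 libraries allow.

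MO25 also binds and activates kinases of the STE20 group, which is a use of Cab39 and Cab39l apart from LKB1. Of 5 such genes 4 were tested and 0 were called by edgeR, by DESeq2 or by limma voom, which called 3.37%, 15.8% and 2.97% of all genes. In edgeR 1 had an unadjusted p under 0.05 (26.3% of all genes), and the median log2 fold change of the 4 was 0.03. Stk25 was at 37.6, 43.0 and 41.0 CPM in KO and 32.0 to 35.04 CPM in WT (log2 fold change 0.27, edgeR adjusted p = 0.184), with no overlap between the groups. Without KO 1 it was called (0.32, adjusted p = 0.0481), where 30.3% of all genes were called. Oxsr1, a kinase of the salt transport pathway, had a log2 fold change of -0.13 (edgeR adjusted p = 0.467), and Stk26 was not tested, at 0.375 CPM or less.

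The other kinases that can activate AMPK were not called either. All 3 were tested, and 0 passed in edgeR, DESeq2 or limma voom, which called 3.37%, 15.8% and 2.97% of all genes. In edgeR 0 had an unadjusted p under 0.05, against 26.3% of all genes. With 3 genes such counts say little. Their median log2 fold change was -0.42. Map3k7, which encodes TAK1, was at 39.7, 29.0 and 40.8 CPM in KO and 41.1, 53.0 and 52.0 CPM in WT. All KO libraries lay below all WT libraries, KO 3 and WT 1 nearly meeting, and the fold change of -0.42 had an edgeR adjusted p of 0.193. In the replicates numbered 2 and 3 the fold change of Map3k7 was -0.59 (adjusted p = 0.0492), where 32.7% of all genes were called. Camkk1 was near the detection limit, at 0.106 to 0.36 CPM, with an edgeR adjusted p of 0.453.

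Of 12 chaperones, binding proteins and modifying enzymes of LKB1, all were tested and 0 passed in edgeR, with 4 at an unadjusted p under 0.05, against 26.3% of all genes. DESeq2 called 2, Hsp90ab1 as higher and Prkcz as lower, against 15.8% of all genes, and limma voom called 0. The median log2 fold change was -0.14. Hsp90ab1 was at 1032, 1209 and 1247 CPM in KO and 833 to 896 CPM in WT (0.42, edgeR adjusted p = 0.185). Prkcz, an atypical protein kinase C, was at 16.74, 10.7 and 11.2 CPM in KO and 16.68, 22.2 and 24.1 CPM in WT. Its KO 2 and KO 3 lay below every WT library, and KO 1 was level with WT 1. The log2 fold change of Prkcz was -0.70 (edgeR adjusted p = 0.114), and -1.08 in the replicates numbered 2 and 3 (adjusted p = 0.00229), with an interaction that just missed the threshold (adjusted p = 0.0505). Fyn, a Src-family tyrosine kinase that is also expressed in blood and endothelial cells, was at 5.09, 3.51 and 3.29 CPM in KO and 8.40, 5.80 and 5.73 CPM in WT, with no overlap (-0.74, edgeR adjusted p = 0.127). The sum of endothelial markers was also lower in every KO library, and its part in the Fyn values was not tested. In the replicates numbered 2 and 3, 3 of the 12 were called, Fyn, Prkcz and Rps6ka1, all lower, where 32.7% of all genes were called.

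The neighbourhood of Stk11 was examined because a floxed allele is carried with the DNA around it. The annotation places 83 other genes with a start within 500 kb of the Stk11 start, and 49 of them were tested. edgeR called 0 of the 49, with 9 at an unadjusted p under 0.05 (26.3% of all genes), DESeq2 called 4 (15.8% of all genes) and limma voom 0. With Xist state as a term edgeR called 4 of the 49, where it called 1504 of all 14539 tested genes. The groups did not overlap in 36.7% of them, close to the 32.4% of all genes, and their median log2 fold change was 0.18 against 0.01 for all genes. The fall of Stk11 stood apart from these values, which ran from -0.89 to 1.57. In the replicates numbered 2 and 3, 11 of the 49 were called as higher and 4 as lower, a share near the 32.7% of all genes.

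By adjusted p the leading neighbours were Adamtsl5 and Atp5d. Adamtsl5, an extracellular matrix protein gene 233 kb from Stk11, was at 1.05, 1.91 and 2.23 CPM in KO and 0.572, 0.501 and 0.663 CPM in WT (log2 fold change 1.57, SE 0.366, edgeR adjusted p = 0.0643). Atp5d, which encodes a subunit of mitochondrial ATP synthase 22.8 kb from Stk11, was at 193, 228 and 254 CPM in KO and 139, 146 and 149 CPM in WT (0.64, SE 0.155, edgeR adjusted p = 0.0696). In both genes every KO library lay above every WT library. Both were called without KO 1, with adjusted p-values of 0.00604 and 0.00796 and fold changes of 1.83 and 0.74. In that setting 15 of the 49 neighbours and 30.3% of all genes were called.

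**Figure D4:**
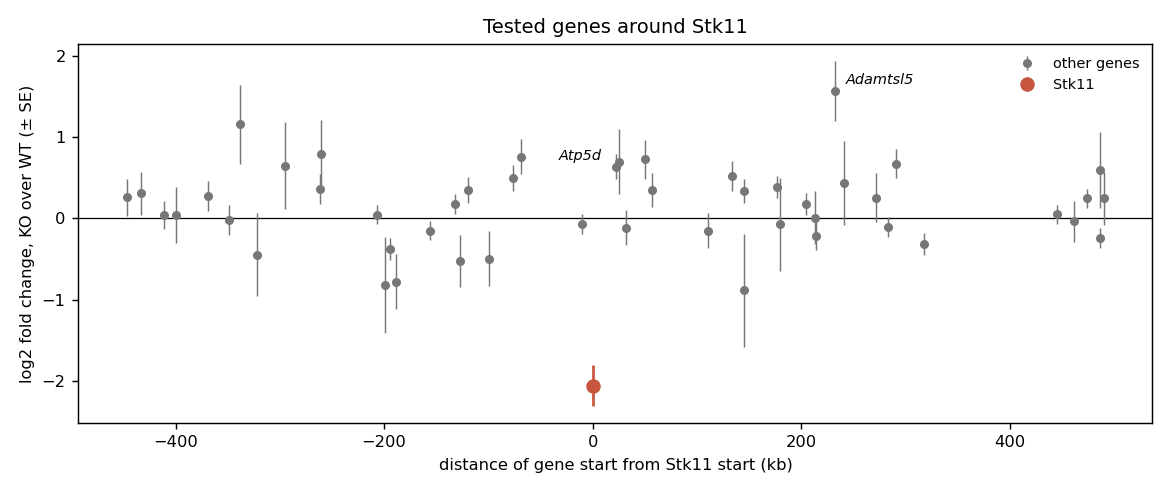
Log2 fold change of KO over WT (± SE) of Stk11 and the 49 tested genes that start within 500 kb of it, by distance from the Stk11 start in kb. Stk11 lies at -2.06, below the neighbours, which range from -0.89 to 1.57.

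To place the Stk11 profile among other genes, each gene's log2 CPM was centred on its own mean over the 6 libraries and compared by the root mean square difference. Among 11968 genes with a mean of at least 1 CPM, the nearest to Stk11 were Adgrg3 (0.18), Pllp (0.195), Sqle (0.209), Map2k6 (0.229) and Apoa1 (0.249). Adgrg3, an adhesion receptor gene, was at 1.39, 1.08 and 0.764 CPM in KO and 5.54, 3.99 and 4.06 CPM in WT. Sqle, which encodes squalene epoxidase of cholesterol synthesis, was at 32.6, 24.3 and 17.1 CPM in KO and 86.0, 85.4 and 73.7 CPM in WT. Pllp, the plasmolipin gene, was at 4.91, 2.81 and 2.21 CPM in KO and 10.5 to 10.8 CPM in WT. In each of these, as in Stk11, KO 1 was the highest KO library and all KO libraries were below WT. The 5 genes were chosen by this profile, so neither the pattern nor their tests between KO and WT are separate evidence. Adgrg3, Pllp and Sqle were called over all genes in edgeR (adjusted p = 0.0252, 0.0387 and 0.0226) but not when 1 of KO 2, KO 3 or any WT library was left out (0.0505 to 0.173).

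Map2k6, a kinase upstream of p38, fell short of the threshold (log2 fold change -1.90, adjusted p = 0.0687). Apoa1, the main HDL apolipoprotein, was at 2690, 1137 and 888 CPM in KO and 5994 to 7500 CPM in WT (-2.07, edgeR adjusted p = 0.0568). Both were called with Xist state as a term (adjusted p = 0.0309 and 0.0246), where 1504 of 14539 genes were called. They were also called in the replicates numbered 2 and 3 (-2.48, adjusted p = 0.00329, and -2.61, adjusted p = 0.00206), where 32.7% of all genes were.

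The partner genes had closer but flatter companions. The nearest to Stradb were Iscu (0.0221) and Erbin (0.0278), to Cab39 Herpud2 (0.0227) and D930016D06Rik (0.028), to Cab39l Iqgap2 (0.0289) and Kansl1l (0.0405), and to Strada Pip4k2b (0.0494) and Bicdl1 (0.0508). These 8 genes were chosen for profiles near those of genes that were not called. None of the 8 passed the threshold between KO and WT either, with edgeR adjusted p-values from 0.232 to 0.888, which largely follows from that choice. With 6 libraries these distances describe profiles only.

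**Figure D5:**
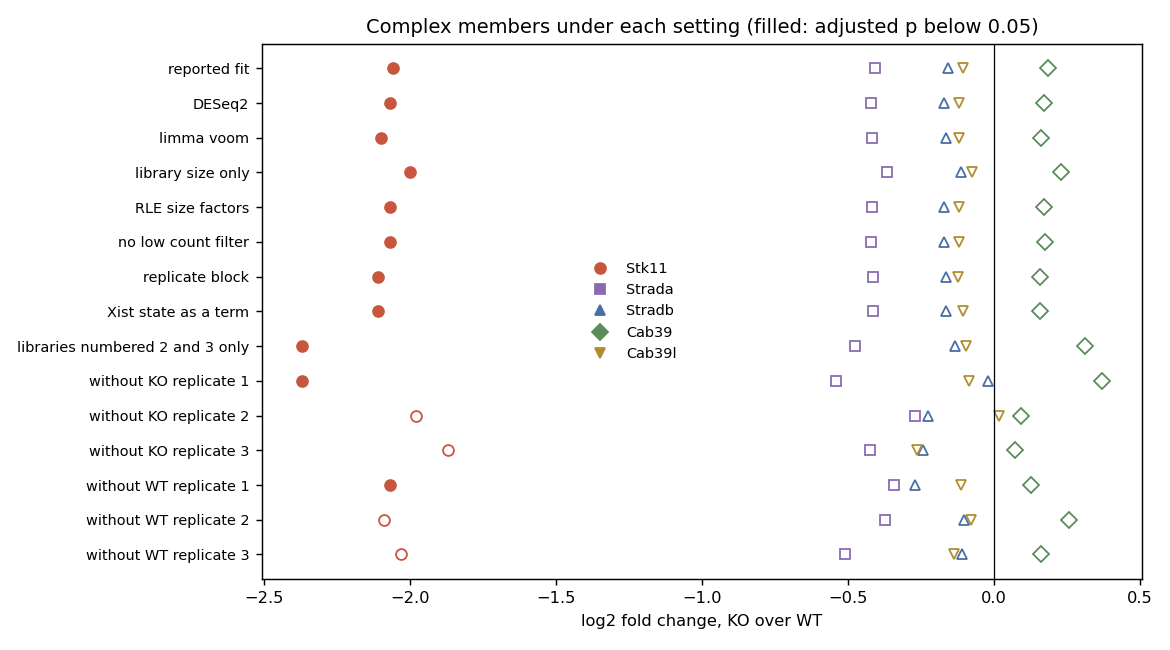
Log2 fold change of KO over WT for the 5 members under the reported fit and 14 other settings; filled symbols have an adjusted p below 0.05. Stk11 stays between -2.37 and -1.87 and loses its call without KO 2, KO 3, WT 2 or WT 3, whereas the partner genes stay between -0.54 and 0.37 with no call.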

How the data were processed

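The authors deposited 1 table of expected counts, estimated reads per gene that need not be whole (4.93% to 5.47% of values per library were not), with 1 column per mouse. The submitters' processing notes name bcl2fastq 2.17, cutadapt 1.18, STAR 2.7.0f, RSEM 1.3.1 and the build mm9. All 55450 versioned gene IDs of the deposited table occur in GENCODE M21, an annotation of GRCm38, so positions here are from that annotation and not from mm9. Each column was matched to 1 mouse by its description, and the groups come from the titles.

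Counts were rounded. Genes were kept by filterByExpr of edgeR 4.0.16 (14539 of 55450), scaled by TMM and compared with edgeR's quasi-likelihood test (R 4.3.3), with the group as the only term and Benjamini-Hochberg adjustment over all tested genes at 0.05. Intervals are the fold change ± the t quantile times the SE, the SE being the size of the log2 fold change divided by the root of F. The procedure was tested on simulated counts. Paralog shares used exact permutation tests. Alternatives were DESeq2 1.42.0, limma voom 3.58.1, other scaling, no filter, a replicate block, a Xist term and left-out libraries. Per-length levels used the longest principal (APPRIS) transcript, and the longest annotated transcript as an alternative chosen after seeing the data. The mice are separate animals.

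The members and lists were chosen with earlier results of these data known. Genes named are the members, Prkaa1 and Prkaa2, of each list those past the threshold (up to 6) or else the 2 with the smallest adjusted p, and the nearest profiles, which were 5 for Stk11 and 2 for each partner. Others are said to be chosen after their values were seen, or are markers or named for a shared sequence, a count of 5 or fewer or a missing test.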

Additional observations from a re-analysis of the deposited data

How the results depend on the processing

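Stk11 kept its direction in all 14 alternatives and its call in 10 of them. Without single replicates its log2 fold change ran from -2.37 to -1.87, and the call was lost without KO 2, KO 3, WT 2 or WT 3. With the replicate block it was -2.11 (adjusted p = 0.0407), and with a Xist term its adjusted p was 0.0119. Strada, Stradb and Cab39 kept their direction and stayed above the threshold in all 14, and Cab39l did so except that it turned to 0.0192 without KO 2; left-out replicates gave -0.264 to 0.0192. Prkaa1, at -0.02, turned to 0.0268 with library size alone, 0.122 in the replicates numbered 2 and 3, 0.166 without KO 1 and 0.046 without WT 2, and ran from -0.151 to 0.166 over left-out replicates. The block also ended the calls of Sik1 (2.37, adjusted p = 0.0859) and Pllp (-1.76, adjusted p = 0.0663); it changed no other call among the genes named by the rule. The Strada and Cab39 shares kept their sign in all 9 alternatives each, but the difference of KO from WT ran from -3.09 (without KO 1) to -0.125 points (without WT 1) for Strada, at -1.39 over all libraries, and from 0.886 (without KO 2) to 8.38 points (without KO 1) for Cab39, at 4.88.

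Over all genes edgeR called 490 of 14539. With no filter it called 771, but of 23717 tested genes. DESeq2 called 2290, the replicate block gave 105, the Xist term 1504 and the replicates numbered 2 and 3 alone 4760. Leaving out single replicates gave 19 to 4409. The interaction with Xist state called 421 genes, and 1607 of the 23717 with no filter. The causes were not tested. Same-numbered mice are not described as paired in the labels, although replicates 1 share their Xist state: deviations of same-numbered libraries correlated at 0.178, 0.0443 and 0.0678, and KO 2 and KO 3 did not correlate best with their own number. Low counts limit Strada most, at 75.2 to 123 per library.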
